A study of Mus musculus with 8 samples.

Results

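Box C/D snoRNAs were examined in 4 mouse small RNA libraries, through every sequence whose name in the deposited tables holds Snord, except those of Snord12, Snord35a, Snord53, Snord55, Snord88a, Snord88b, Snord88c and Snord104. This gave 55 box C/D snoRNAs, the same 55 in each table, among 475 listed tRNA and snoRNA sequences for Hepa 1-6 cells and 467 for hepatocytes, or 489 over both tables. KAP1 (gene Trim28) is a transcriptional cofactor, and the study asked what its loss does to transcription. Hepa 1-6 is a mouse hepatoma cell line, and 1 library came from control cells and 1 from cells carrying an shRNA against Kap1 (Kap1 KD), both collected 5 days after transduction. The control is a control shRNA in the source label and the empty vector in the sample title and the study's methods. The other pair was made from primary mouse hepatocytes processed directly after purification, with 1 wild-type library and 1 Kap1 knock-out (Kap1 KO) library. The labels give neither the age or strain of the animals nor the way in which Kap1 was deleted, and for Hepa 1-6 cells one label field says that a plasmid was transfected while another speaks of transduction. RNA for all 4 libraries was depleted of rRNA, with one kit for Hepa 1-6 cells and another for hepatocytes, so cell type and kit cannot be told apart. A further 2 control and 2 Kap1 KD libraries of polyadenylated RNA from Hepa 1-6 cells were used for the host genes and the proteins that bind these snoRNAs.

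Small nucleolar RNAs of the box C/D type guide 2′-O-methylation of ribosomal and spliceosomal RNA, and a few of them act in the cleavage of pre-rRNA. Each carries a C box near the 5′ end and a D box near the 3′ end, which are bound by NHP2L1 (SNU13), NOP56, NOP58 and the methyltransferase fibrillarin. In mammals most are cut out of the introns of host genes, many of which encode ribosomal proteins or are long non-coding RNAs, such as Gas5. Box H/ACA snoRNAs, named Snora, guide pseudouridylation instead.

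The name and length of 48 of the 55 box C/D snoRNAs matched a locus in the GENCODE annotation of NCBIM37 (mm9), the build that the tables name. A gene on the same strand held 45 of these loci, in 34 host genes. Of the hosts, 28 were protein-coding and 10 encoded ribosomal proteins, which together held 15 of the snoRNAs. The locus lay in an intron for 28 snoRNAs and overlapped an exon of some transcript of the host for 17. Sequences read from that genome are shown for the snoRNAs that share a host gene and differ most in their ratios, and for those that led each cell type or went opposite ways in the pairs. All run 5′ to 3′ on the strand of the gene, and capitals mark TGATGA, the letters of the C box, within the first 20 bases and CTGA, those of the D box, within the last 20. Rpl13a, which encodes a protein of the large ribosomal subunit, holds Snord32a (chr7:52382752-52382834, minus strand), Snord33 (chr7:52382234-52382317, minus strand) and Snord34 (chr7:52381971-52382040, minus strand).
Snord32a: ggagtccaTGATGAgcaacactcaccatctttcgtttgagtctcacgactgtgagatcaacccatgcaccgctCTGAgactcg
Snord33: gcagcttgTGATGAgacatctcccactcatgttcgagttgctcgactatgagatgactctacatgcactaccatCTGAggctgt
Snord34: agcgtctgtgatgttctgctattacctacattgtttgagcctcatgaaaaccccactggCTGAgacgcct
Rpl23a, another gene of the large subunit, holds Snord42a (chr11:77994801-77994865, minus strand), Snord42b (chr11:77996558-77996626, minus strand) and Snord4a (chr11:77995188-77995258, minus strand). Snord42a and Snord4a lie in introns, and Snord42b overlaps an exon of some transcript.
Snord42a: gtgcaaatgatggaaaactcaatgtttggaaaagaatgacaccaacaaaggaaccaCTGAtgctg
Snord42b: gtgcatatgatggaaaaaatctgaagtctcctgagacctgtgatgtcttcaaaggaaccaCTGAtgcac
Snord4a: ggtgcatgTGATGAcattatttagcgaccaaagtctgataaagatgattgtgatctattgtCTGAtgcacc
The lincRNA 2410006H16Rik holds Snord49a (chr11:62416952-62417023, plus strand), Snord49b (chr11:62416581-62416652, plus strand) and Snord65 (chr11:62418017-62418088, plus strand).
Snord49a: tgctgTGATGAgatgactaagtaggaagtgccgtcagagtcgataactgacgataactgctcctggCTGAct
Snord49b: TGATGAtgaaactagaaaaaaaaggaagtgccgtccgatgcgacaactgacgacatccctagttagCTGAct
Snord65: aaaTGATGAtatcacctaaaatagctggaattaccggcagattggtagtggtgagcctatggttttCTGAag
The protein-coding gene 1810032O08Rik holds Snord1a (chr11:116535912-116535985, plus strand) and Snord1b (chr11:116535462-116535536, plus strand), and Rabggtb, which encodes a subunit of Rab geranylgeranyl transferase, holds Snord45b (chr3:153573527-153573597, minus strand) and Snord45c (chr3:153575089-153575168, minus strand).
Snord1a: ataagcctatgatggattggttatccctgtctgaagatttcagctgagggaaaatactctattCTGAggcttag
Snord1b: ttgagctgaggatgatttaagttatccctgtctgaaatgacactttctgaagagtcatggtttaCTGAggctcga
Snord45b: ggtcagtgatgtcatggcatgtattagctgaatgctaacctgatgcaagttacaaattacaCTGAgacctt
Snord45c: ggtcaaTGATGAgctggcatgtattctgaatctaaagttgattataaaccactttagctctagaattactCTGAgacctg
The remaining sequences are those of Snord99 (chr4:131866606-131866679, plus strand) in the lincRNA Snhg12, Snord83b (chr15:79908928-79909021, minus strand) in Rpl3, Snord22 (chr19:8800356-8800481, plus strand) in the lincRNA Snhg1 and Snord67 (chr2:91436227-91436337, plus strand) in Ckap5.
Snord99: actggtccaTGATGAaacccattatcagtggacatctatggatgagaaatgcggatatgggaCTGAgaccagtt
Snord83b: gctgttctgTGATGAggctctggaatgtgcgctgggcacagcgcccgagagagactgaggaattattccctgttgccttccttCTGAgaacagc
Snord22: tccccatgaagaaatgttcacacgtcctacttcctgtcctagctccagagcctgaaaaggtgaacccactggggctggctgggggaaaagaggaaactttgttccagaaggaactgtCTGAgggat
Snord67: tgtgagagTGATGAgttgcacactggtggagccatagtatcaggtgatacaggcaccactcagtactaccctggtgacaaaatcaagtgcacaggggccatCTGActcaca

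On the strand of the gene, TGATGA stood within the first 20 bases of 30 of the 48 matched box C/D snoRNAs and CTGA within the last 20 of 47, with both in 29 and no overlap between the windows. The D box letters were not found in that window of Snord68. Of the 346 snoRNAs that the annotation names Snord or SNORD, 74.9% held TGATGA and 94.2% CTGA in the same windows, against 0.485% and 10.9% of the 1031 named Snora or SNORA. Ratios were close with and without the C box letters. In Hepa 1-6 cells the median log2 ratio of Kap1 KD to control was 0.54 with the letters and 0.56 without, and in hepatocytes the median of Kap1 KO to wild-type was 1.03 with them and 1.04 without. The closest pair of sequences was Snord49a and Snord49b, which shared 70.8% of their bases. Reads were counted on sequences with 200 bases of flank on each side. Among the 48 matched box C/D snoRNAs, these flanks overlapped for 4 pairs of neighbours in 1 host. Of these pairs, only for Snord33 and Snord34, which lie 193 bases apart, did the flank of one reach into the snoRNA of the other. Their counts may therefore share reads. Overlap with Snora sequences, with the unmatched snoRNAs and with the box C/D snoRNAs outside the selection was not checked.

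The 55 box C/D snoRNAs made up 13647565 of 26249204 counts in control Hepa 1-6 cells, 14297499 of 29223566 in Kap1 KD cells, 1550954 of 3028467 in wild-type hepatocytes and 5555788 of 11006899 in Kap1 KO hepatocytes. These totals are of the listed tRNA and snoRNA sequences and are not the depth of the libraries. As shares of the totals they were 52.0% and 48.9% in Hepa 1-6 cells and 51.2% and 50.5% in hepatocytes, so in both pairs the summed share was slightly lower after Kap1 depletion. The 7 box C/D snoRNAs left out by the selection took 43.2% and 48.2% of the counts in Hepa 1-6 cells and 44.8% and 47.9% in hepatocytes. Over the same libraries the tRNA sequences went from 4.03% to 2.24% and from 1.54% to 0.649%, and the Snora sequences from 0.783% to 0.609% and from 2.44% to 1.02%. The median count of a box C/D snoRNA was 25360 and 22683 in Hepa 1-6 cells, and 3363 and 11695 in hepatocytes. Counting error is small at these depths, but with 1 library per condition every difference is between libraries and has no replicate check, and intervals from counts cover counting error only.

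A few snoRNAs held most of the counts, and different ones led in each cell type. The 5 with the most counts held 73.4% and 73.2% of the box C/D counts in Hepa 1-6 cells and 72.7% and 70.5% in hepatocytes. Counts were scaled to the table total (CPM) and divided by a length, the deposited end position less both flanks. This runs slightly short of the sequence, at 71 for Snord49a, which has 72 bases. On this scale Snord49a led in control Hepa 1-6 cells at 2485 CPM per base. It was followed by Snord83b at 989, Snord110 (hosted by Nop56) at 876 and Snord99 at 397. In Kap1 KD cells the first 4 were in the same order, at 2147, 982, 974 and 365. In wild-type hepatocytes Snord99 led at 2554, followed by Snord49a at 971, Snord58b at 785 and Snord47 (hosted by Gas5) at 539. In Kap1 KO hepatocytes Snord99 was at 2163, and Snord58b, at 1023, stood above Snord49a, at 845. The levels per base in control Hepa 1-6 cells and wild-type hepatocytes had a Spearman's rho of 0.776 over the 55 snoRNAs, which share each library and its rRNA depletion.

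**Figure D1:**
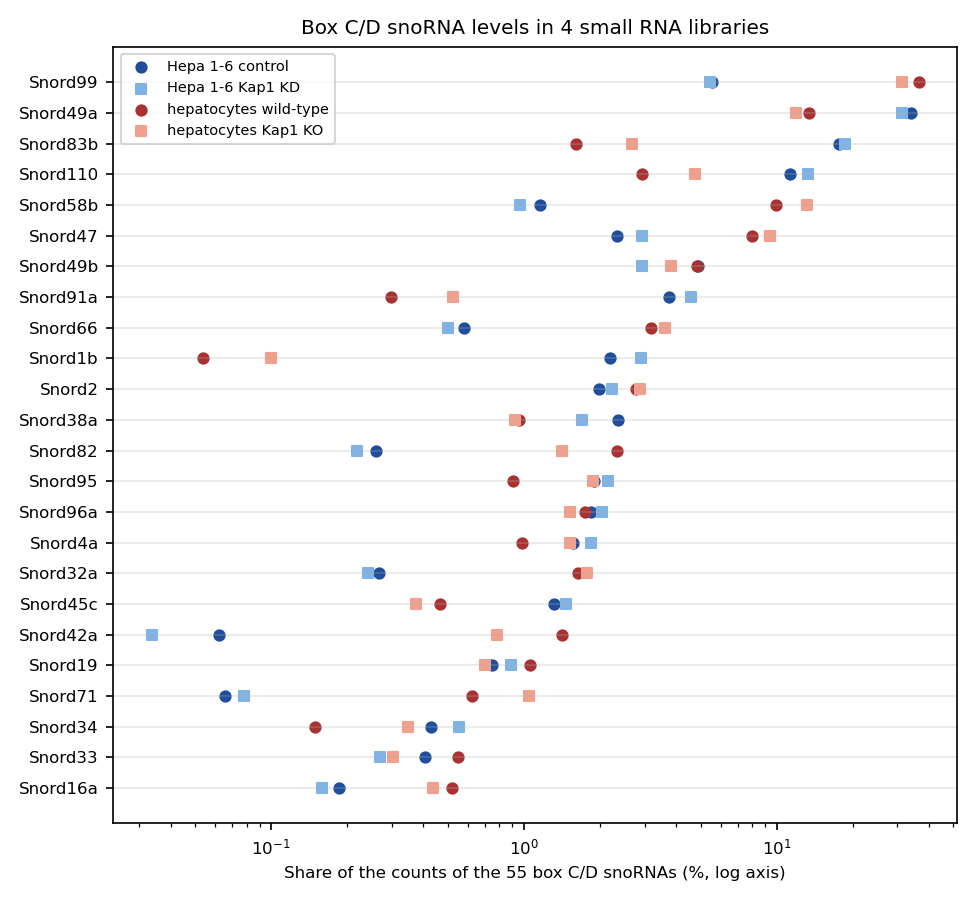
Share of the counts of the 55 box C/D snoRNAs held by each of 24 of them (x axis, percent on a log axis) in 4 small RNA libraries, with 1 point per library, ordered by the highest share. Snord99 held 36.4% in wild-type hepatocytes and 5.57% in control Hepa 1-6 cells, and Snord1b 0.0535% and 2.18%.

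Among snoRNAs with at least 100 counts in every library, Snord1b differed most between the control libraries of the cell types. It held 2.18% of the box C/D counts in control and 2.90% in Kap1 KD Hepa 1-6 cells, but 0.0535% in wild-type and 0.0999% in Kap1 KO hepatocytes, and the log2 ratio of its share in wild-type hepatocytes to that in control Hepa 1-6 cells was -5.35. Snord1a, from the same host, differed little by the same measure, at -0.28, with 2885 and 270 counts. Snord91a (hosted by Tsr1) had a log2 ratio of -3.64 and Snord83b one of -3.46. Snord42a lay at the other end of these snoRNAs at 4.50, with 8505 of 13647565 counts in control Hepa 1-6 cells and 21833 of 1550954 in wild-type hepatocytes, while Snord42b of the same host was at -0.02. Snord99 was at 2.71 and Snord58b at 3.11. For Snord1b, Snord91a, Snord83b, Snord42a, Snord99 and Snord58b, the shares in both libraries of one cell type lay above those in both libraries of the other. These snoRNAs already differed widely between the control libraries, so this adds little. How many of all box C/D snoRNAs meet it was not counted.

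2 snoRNAs were close to the detection limit in Hepa 1-6 cells. Snord64, an orphan snoRNA of the imprinted Snrpn region with no known target in rRNA, had 2 counts in control and 0 in Kap1 KD Hepa 1-6 cells, where a count of 0 allows up to 3, and 66 and 188 counts in wild-type and Kap1 KO hepatocytes. SNORD123 had 7 and 3 counts in Hepa 1-6 cells and 75 and 377 in hepatocytes. Both were therefore left out of the Hepa 1-6 ratios, which needed 50 counts summed over a pair, and a difference could not be detected at this depth.

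Ratios between the libraries of a pair were taken after TMM scaling over all listed sequences, which sets the median log2 ratio of all sequences to 0.02 in Hepa 1-6 cells and -0.02 in hepatocytes. In Hepa 1-6 cells 51 of the 53 box C/D snoRNAs with enough counts had a log2 ratio of Kap1 KD to control above 0, where 51.9% of all 339 sequences did. Their median was 0.57, with quartiles of 0.26 and 0.85 and a range of -0.17 to 1.13. At least 1.5-fold higher were 26 of the 53, against 16.8% of all sequences, and 0 were 1.5-fold lower, against 17.4%. In hepatocytes 52 of 55 had a log2 ratio of Kap1 KO to wild-type above 0, against 47.9% of 261 sequences. The median was 1.09, with quartiles of 0.71 and 1.61 and a range of -0.67 to 2.37. At least 1.5-fold higher were 45 of the 55, against 30.3%, and 1 (Snord67) was 1.5-fold lower, against 30.7%. The Snora medians were 0.33 and 0.22, and the tRNA medians -0.12 and -0.53, in Hepa 1-6 cells and hepatocytes.

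**Figure D2:**
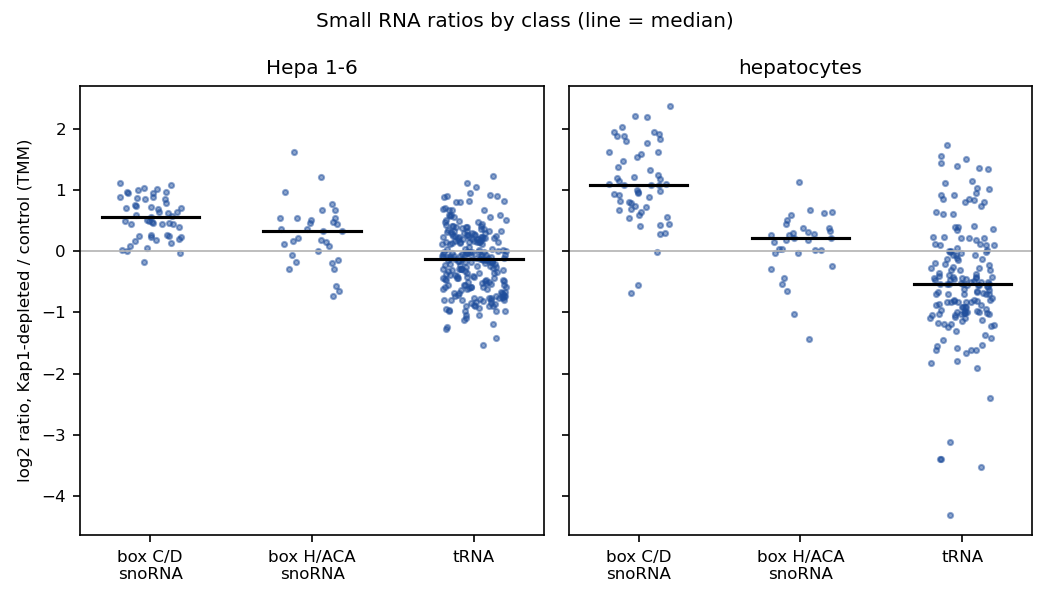
Log2 ratio of the Kap1-depleted to the control library after TMM scaling (y axis) for box C/D snoRNAs, box H/ACA snoRNAs and tRNA sequences, with 1 point per sequence and a line at the class median, in Hepa 1-6 cells and hepatocytes. The box C/D medians are 0.57 and 1.09, the box H/ACA medians 0.33 and 0.22 and the tRNA medians -0.12 and -0.53.

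The direction of this shift rested on the scaling, while the order of the snoRNAs did not. Scaling by the total counts of the table moved every log2 ratio by about -0.81 in Hepa 1-6 cells and -1.16 in hepatocytes, and the box C/D medians became -0.24 and -0.08. At least 1.5-fold higher were then 0 of 53 and 12 of 55, against 0.885% and 6.51% of all sequences, and 1.5-fold lower 10 and 10, against 61.4% and 69.7%. What no scaling could change was that the box C/D median stood above that of the Snora sequences, by 0.23 in Hepa 1-6 cells and 0.87 in hepatocytes. Values below are TMM-scaled log2 ratios, unless they are ratios between 2 snoRNAs or shares, which do not depend on the scaling.

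Of the 5 snoRNAs with the highest ratios, 4 were the same in both pairs. Snord1b had 297817 counts in control and 413972 in Kap1 KD Hepa 1-6 cells, and 830 and 5550 in wild-type and Kap1 KO hepatocytes, for log2 ratios of 1.13 and 2.04. Snord34 had 58543 and 79406 counts in Hepa 1-6 cells and 2303 and 19351 in hepatocytes, for 1.09 and 2.37. Snord93 went from 36269 to 46663 and from 1544 to 11695, for 1.01 and 2.22. Snord91a, the last of the 4, was at 1.01 and 1.95. The fifth was Snord47 in Hepa 1-6 cells, at 1.04 there and 1.37 in hepatocytes, and Snord95 (hosted by Gnb2l1) in hepatocytes, at 2.20 there and 0.90 in Hepa 1-6 cells. Among the most abundant, Snord110 was at 0.96 and 1.84, Snord83b at 0.80 and 1.89, Snord2 (hosted by Eif4a2) at 0.90 and 1.19, Snord99 at 0.69 and 0.92, and Snord49a at 0.60 and 0.96.

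At the lower end Snord42a and Snord45b were among the 5 in both pairs. In Hepa 1-6 cells the 5 lowest were Snord42a at -0.17, Snord49b at -0.02, Snord1a at 0.00, Snord65 at 0.02 and Snord45b at 0.06. In hepatocytes they were Snord67 at -0.67, Snord22 at -0.55, Snord45b at -0.01, Snord33 at 0.29 and Snord42a at 0.30. Snord67, which guides a methylation of U6 snRNA, had 535 and 478 counts in Hepa 1-6 cells and 490 and 498 in hepatocytes, although the table total was higher in the Kap1 KO library. Its log2 ratio was 0.49 in Hepa 1-6 cells (95% counting interval 0.31 to 0.67) and -0.67 in hepatocytes (-0.86 to -0.49). Snord22 (U22), which is needed for the processing of 18S rRNA, had 15625 and 11781 counts in Hepa 1-6 cells and 4192 and 4632 in hepatocytes, with log2 ratios of 0.24 (0.21 to 0.28) and -0.55 (-0.61 to -0.49).

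Over the 53 snoRNAs with a ratio in both pairs, 48 were above 0 in both, 3 only in Hepa 1-6 cells and 2 only in hepatocytes. 24 were at least 1.5-fold higher in both. Since 51 of 53 and 52 of 55 were above 0 in the single pairs, and 26 and 45 at least 1.5-fold higher, large overlaps follow from these counts alone. The share of all sequences that were higher in both pairs was not counted. The ratios of the pairs had a Spearman's rho of 0.565 and a Pearson's r of 0.562 over these 53, which come from 1 library per condition. Ratios bore little relation to length (rho -0.027 in Hepa 1-6 cells and -0.189 in hepatocytes) or to GC content (0.033 over 46 and -0.06 over 48 snoRNAs with a sequence). Set against the log2 count in the control library of the same pair, the ratios of Hepa 1-6 cells had a rho of 0.345 and those of hepatocytes one of 0.031, and the ratio and that count share a library. Set against the control count of the other pair, which shares none, rho was 0.193 for the Hepa 1-6 ratios and 0.275 for those of hepatocytes.

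**Figure D3:**
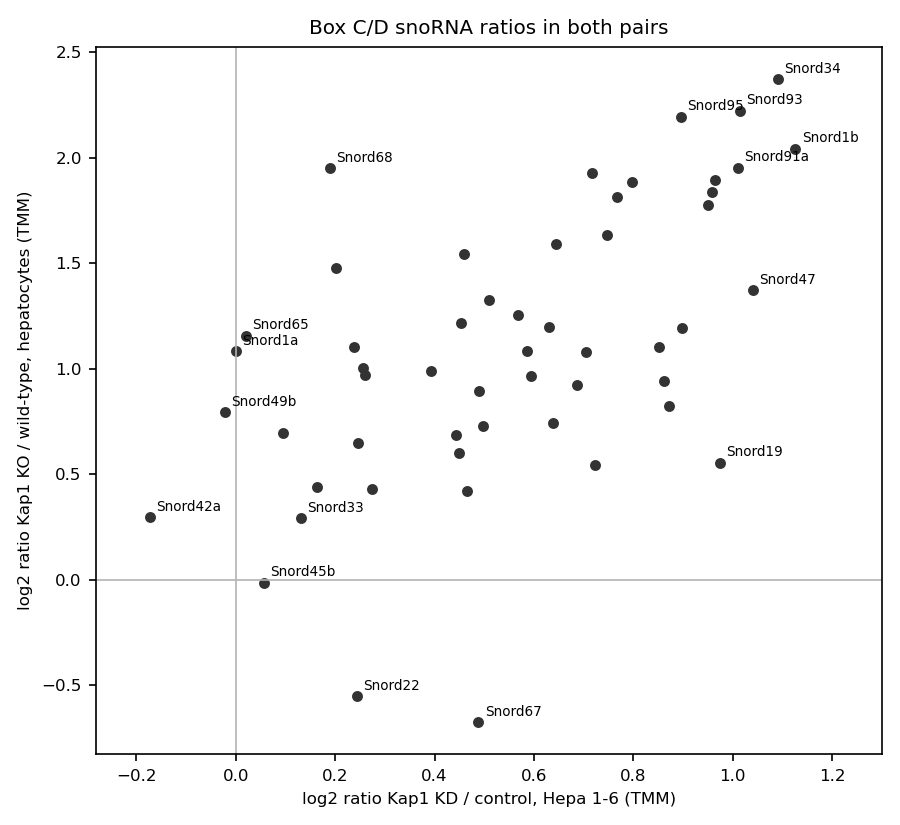
TMM-scaled log2 ratio of Kap1 KD to control in Hepa 1-6 cells (x axis) against that of Kap1 KO to wild-type in hepatocytes (y axis) for the 53 box C/D snoRNAs with at least 50 counts in each pair, 1 point each. 48 points lie above 0 on both axes, Snord34 and Snord1b lie at the upper right, and Snord22, Snord67 and, at -0.01, Snord45b lie below 0 in hepatocytes alone.

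As shares of the summed box C/D counts, which set the snoRNAs only against each other, 13 of the 53 were higher in the Kap1-depleted library of both pairs and 25 were lower in both. 5 were higher only in Hepa 1-6 cells and 10 only in hepatocytes. In the single pairs 18 of 53 were higher in Hepa 1-6 cells and 24 of 55 in hepatocytes, against 11.5% and 14.9% of all sequences on the same scale. The share of all sequences that went the same way in both pairs was not counted. Snord34 went from 0.429% to 0.555% in Hepa 1-6 cells and from 0.148% to 0.348% in hepatocytes. Snord110 went from 11.3% to 13.3% and from 2.94% to 4.77%, and Snord83b from 17.7% to 18.7% and from 1.60% to 2.68%. In the other direction Snord49b went from 4.89% to 2.93% and from 4.86% to 3.81%, and Snord42a from 0.0623% to 0.0336% and from 1.41% to 0.783%. Snord22 went from 0.114% to 0.0824% and from 0.27% to 0.0834%. Snord58b was lower in Kap1 KD cells (1.16% to 0.966%) and higher in Kap1 KO hepatocytes (9.96% to 13.2%). Relative to the summed box C/D counts, 0 of 53 were at least 1.5-fold higher in Hepa 1-6 cells and 12 of 55 in hepatocytes, against 0.885% and 6.9% of all sequences, and 7 and 10 were 1.5-fold lower, against 54.0% and 69.7%.

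SnoRNAs of one host gene often differed in their ratios. The 8 hosts of 2 or more measured snoRNAs gave 14 pairs within a host. In 12 of them the snoRNA with the higher ratio in Hepa 1-6 cells also had the higher ratio in hepatocytes. The share of pairs from different hosts that kept their order was not counted. With a Spearman's rho of 0.565 between the cell types over 53 snoRNAs, many such pairs would keep it too. Some of the 14 pairs share a snoRNA, so they are not independent. Whether order is kept more often within a host was therefore not tested. In Rpl13a, Snord33 had 55353 and 38606 counts in Hepa 1-6 cells and 8499 and 16855 in hepatocytes, Snord32a 36448 and 34413, and 25376 and 98368. Their log2 ratios were 0.13 and 0.29 for Snord33 and 0.57 and 1.26 for Snord32a, with Snord34 above both at 1.09 and 2.37. The count of Snord34 was 1.06 times that of Snord33 in control and 2.06 times in Kap1 KD Hepa 1-6 cells, and 0.271 and 1.15 times in wild-type and Kap1 KO hepatocytes. These changes came to 0.96 (95% counting interval 0.94 to 0.98) and 2.08 (2.01 to 2.16) on the log2 scale.

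In Rpl23a, Snord4a had 213154 and 262140 counts in Hepa 1-6 cells and 15257 and 84812 in hepatocytes, while Snord42a had 8505 and 4809, and 21833 and 43508. Snord4a exceeded Snord42a in its log2 ratio by 1.12 (1.07 to 1.17) and 1.48 (1.45 to 1.51), with Snord42b between them at 0.45 and 0.60. In 1810032O08Rik the count of Snord1b was 103 times that of Snord1a in control and 225 times in Kap1 KD Hepa 1-6 cells, and 3.07 and 5.97 times in wild-type and Kap1 KO hepatocytes. The change was 1.13 (1.04 to 1.21) and 0.96 (0.74 to 1.18). In Rabggtb the corresponding change for Snord45c over Snord45b was 0.81 (0.78 to 0.85) and 0.84 (0.70 to 0.98), close to equal in the 2 pairs.

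In the lincRNA 2410006H16Rik, Snord49a exceeded Snord49b by 0.62 (0.61 to 0.62) in Hepa 1-6 cells and by 0.17 (0.16 to 0.18) in hepatocytes. Snord65 had 43495 and 28104 counts in Hepa 1-6 cells and 697 and 2523 in hepatocytes. Snord49a exceeded it by 0.57 in Hepa 1-6 cells but lay below it in hepatocytes (-0.19, -0.32 to -0.07). The other pair that changed order was in Gnl3, a nucleolar GTPase gene, where Snord19 exceeded Snord69 by 0.52 (0.48 to 0.56) in Hepa 1-6 cells and lay below it in hepatocytes (-0.66, -0.82 to -0.51). In Gnb2l1, whose protein RACK1 sits on the small ribosomal subunit, Snord95 and Snord96a were within 0.03 of each other in Hepa 1-6 cells and 1.26 apart in hepatocytes. In Rps3, Snord15b exceeded Snord15a by 0.45 (0.37 to 0.53) in Hepa 1-6 cells and by 0.11 (-0.04 to 0.26) in hepatocytes, where the interval included 0.

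**Figure D4:**
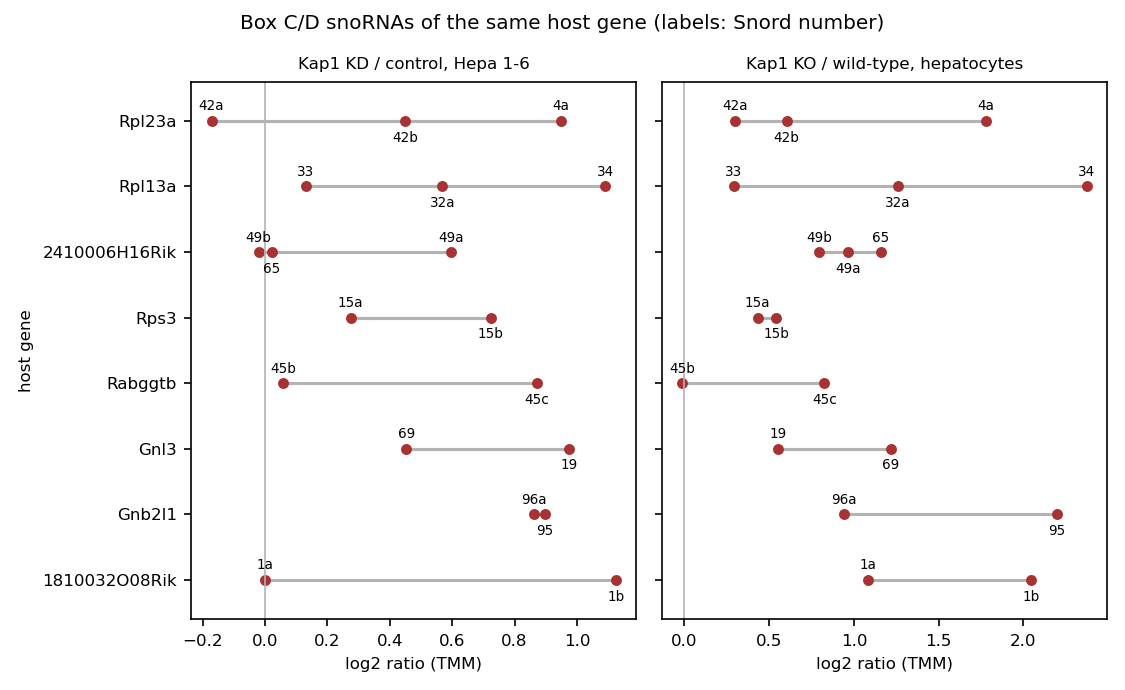
TMM-scaled log2 ratios of box C/D snoRNAs (points, labelled by Snord number) joined by host gene, for the 8 hosts with 2 or more of them, in Hepa 1-6 cells (left) and hepatocytes (right). Snord33, Snord32a and Snord34 of Rpl13a span 0.13 to 1.09 on the left and 0.29 to 2.37 on the right.

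By kind of host the ratios were close. The 15 snoRNAs of ribosomal protein genes had medians of 0.45 in Hepa 1-6 cells and 0.99 in hepatocytes, the 22 of other protein-coding genes 0.57 and 1.03, and the 8 of non-coding hosts, 7 of them with enough counts in Hepa 1-6 cells, 0.59 and 1.03.

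The mRNA of the hosts and of the proteins that bind box C/D snoRNAs was measured in polyadenylated RNA of Hepa 1-6 cells, with 2 control and 2 Kap1 KD samples and 41566888 to 53605115 counts each. Trim28 stood at 515 ± 83.8 CPM in control cells and 92.4 ± 19.1 in Kap1 KD cells (TMM-normalized, SD, n = 2 each), a log2 change of -2.48 (SE 0.25). Its adjusted p in edgeR's quasi-likelihood test was 0.9999, so at this spread between samples that test did not call even the depleted gene. DESeq2's test called it, with an adjusted p of 2.6e-10. So did edgeR's test with a replicate block, which pairs the samples by their numbers. The small RNA tables hold no mRNA, so the loss of Kap1 could not be checked in those libraries. The labelled liver origin was checked in the same samples. Alb, Afp, Apob, Trf, Hnf4a and Foxa2 were present, while Apoa1, at 0.117 to 0.423 CPM, and Ttr, at 0 to 0.222, were nearly absent. The 8 liver markers summed to 2489 and 2116 CPM in the controls and to 1743 and 1137 after Kap1 KD. All 7 tested liver markers had a log2 change below 0, from -1.35 to -0.05, and for 5 of them both Kap1 KD samples lay below both controls. Without the block 0 of them were called. With the block 6 were lower at an adjusted p under 0.05 in edgeR's test, a limit for which the share of all genes was not counted. Of these, Alb (log2 -0.96), Apob (-1.21) and the nearly absent Apoa1 (-1.36) also passed a 1.5-fold limit, where 2.4% of all genes were called lower. Alb was at 1580 and 1037 CPM in the controls and at 975 and 441 after Kap1 KD, and Apob at 30.1 and 30.3, then 14.6 and 11.5. The 8 markers of other cell types summed to 89.9 and 41.7 CPM in the controls and to 73.2 and 34.6 after Kap1 KD. Most of this was Krt7, a bile duct marker, at 25.1 to 83.0 CPM, followed by Cd68 of macrophages at 3.19 to 7.42, Krt19 of bile duct at 0.235 to 2.23 and Col1a1 of stroma at 0.575 to 1.52, while Ptprc, Pecam1, Kdr and Acta2 were at 0.262 CPM or less. Of the 5 tested markers of other cell types, the block gave Col1a1 as higher (log2 0.72, adjusted p = 0.0326 in edgeR's test). It passed the 1.5-fold limit, where 2.06% of all genes were called higher. Krt7 was lower (-0.37, adjusted p = 7.3e-05 in edgeR's test) but did not pass that limit. The part of these marker levels in the snoRNA ratios was not tested.

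None of the 12 tested genes for core proteins and assembly factors passed the test, which needed a 1.5-fold change and an adjusted p under 0.05 in edgeR's quasi-likelihood test, nor did any of the 33 tested hosts, where 0.0% of the 14142 tested genes were called in either direction. At an unadjusted p under 0.05 lay 0 of the 33 hosts and 185 genes of all (1.31%), and DESeq2 called 2 genes higher and 1 lower (0.00913% and 0.00456% of 21915), with 0 of the hosts and 0 of the 12 genes among them. Fbl, which encodes fibrillarin, had 238 and 280 CPM in the controls and 259 and 321 after Kap1 KD, with a log2 change of 0.17 (SE 0.20, adjusted p = 0.9999 in edgeR's test). Nop56 had 406 and 391 in the controls and 407 and 358 after Kap1 KD, for -0.06 (SE 0.17). Nop58 had 163 and 91.5, and 155 and 92.2, for -0.05 (SE 0.39), and Nhp2l1 267 and 260, and 288 and 270, for 0.08 (SE 0.16). The groups overlapped for Nop56, Nop58 and Fbl, while both Kap1 KD samples lay above both controls for Nhp2l1. The 8 assembly factors, among them the helicases Ruvbl1 and Ruvbl2 of the R2TP complex, lay between -0.02 and 0.16. Of 12 further genes of snoRNA modification and export, among them Dkc1, the pseudouridine synthase of box H/ACA particles, and Nolc1 and Coil of the Cajal body, 0 were called, with log2 changes between -0.10 for Npm1 and 0.26 for Naf1.

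The hosts had a median log2 mRNA change of -0.04, beside -0.02 for all tested genes. Above 0 were 15 of the 33 hosts and 6665 of the 14142 tested genes. Rpl13a had 1604 and 2139 CPM in the controls and 1823 and 2506 after Kap1 KD (log2 change 0.21, SE 0.26). Rpl23a had 167 and 189, and 169 and 199 (0.05, SE 0.18). The lincRNA 2410006H16Rik had 77.5 and 97.0, and 73.7 and 90.3 (-0.09, SE 0.22). The groups overlapped in each of the 3, and the sample numbered 2 was the higher in both groups. Across the 44 snoRNAs with a tested host, the snoRNA's Hepa 1-6 ratio and the host's mRNA change had a Spearman's rho of -0.044. 28 of the 55 snoRNAs were also listed in the mRNA table, 13 with enough counts to test and 0 called. Snord45b alone had an unadjusted p under 0.05, with 26 and 11 counts in the controls against 5 and 5 after knock-down (log2 change -1.61, SE 0.60, adjusted p = 0.9999 in edgeR's test). Polyadenylated libraries largely lack mature snoRNAs, so these counts are no measure of them.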

How the data were processed

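The small RNA libraries (1 per condition) and mRNA libraries (2 per condition) were analysed from the deposited tables. The authors deposited raw counts per gene for mRNA (processing notes: TopHat2 2.0.11, HTSeq 0.6.1, mm9), and for small RNA raw counts per tRNA or snoRNA sequence with flanks of 200 bases. The deposited normalized signal, a count divided by 1 factor per library and in further columns by length, was not analysed. Hepatocyte libraries appear in repeated columns with identical values, and each was counted as 1. Small RNA ratios were taken on the log2 scale after TMM scaling, with 0.5 added per count and a minimum of 50 counts over a pair, and no test was run. For mRNA, edgeR 4.0.16 in R 4.3.3 was used, with its default low-count filter, TMM normalization, the quasi-likelihood test and Benjamini-Hochberg adjustment, and DESeq2 1.42.0 as an alternative. Scripts were tested on simulated data. Intervals of single ratios are exact binomial intervals, and those of differences between snoRNAs are normal approximations on the log scale, covering counting error only. Nothing says that the mRNA replicates came from separate cultures, so p-values measure only the spread between samples, which may be technical. Named snoRNAs were the 10 highest per base in each control library, the 5 highest and 5 lowest ratios per pair with at least 100 counts, Snord22, Snord64, those listed at 0 and those of hosts with 3 or more; the other snoRNAs named share a host or were picked after their values were seen. The members and lists were chosen with earlier results of these data known. Alternatives covered scaling, the added count, the count minimum, the fold, the test, the low-count filter, the replicate block and leaving out each mRNA sample.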

Additional observations from a re-analysis of the deposited data

Results flagged for a closer look

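The ratios of 4 box C/D snoRNAs lay on opposite sides of 0 in the 2 pairs of libraries, with counting intervals that did not include 0 in either. Snord67 was lower in hepatocytes than in Hepa 1-6 cells by a difference in log2 ratio of -1.16, and Snord22 by -0.80. Snord49b was higher in hepatocytes by 0.82 and Snord42a by 0.47. Each pair has 1 library per condition, so these differences were not tested, and the sides of 0 hold for TMM scaling.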

How the results depend on the processing

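The small RNA results depended on the scaling. With total counts the box C/D median turned to -0.24 in Hepa 1-6 cells and -0.079 in hepatocytes, with 0 and 12 snoRNAs at least 1.5-fold higher. Scaled to the sum of the box C/D snoRNAs, chosen after seeing the data, it was -0.15 and -0.058, with 0 and 12. Scaled to the median Snora sequence it was 0.23 and 0.87, with 9 of 53 and 38 of 55 at least 1.5-fold higher. Scaled to the median tRNA, chosen after seeing the data, it was 0.69 and 1.61. With TMM a 2-fold limit left 5 of 53 in Hepa 1-6 cells and 30 of 55 in hepatocytes. For the Snora scale and the 2-fold limit the shares of all sequences were not counted. Above 0 were 51.9% of all sequences with TMM and 9.73% with total counts in Hepa 1-6 cells, and 47.9% and 13.8% in hepatocytes. Total counts turned 37 of 53 box C/D log2 ratios in Hepa 1-6 cells and 29 of 55 in hepatocytes from above to below 0. Among the snoRNAs of the naming rule that were past 1.5-fold with TMM, these were Snord49a (-0.21), Snord83b (-0.0094) and Snord99 (-0.12) in Hepa 1-6 cells, and in hepatocytes Snord1a (-0.079), Snord38a (-0.062), Snord42b (-0.56), Snord49a (-0.20), Snord49b (-0.37), Snord64 (-0.36), Snord65 (-0.0066) and Snord99 (-0.24). In mRNA-seq, the replicate block, by numbers partly inferred from the labels and with a correlation of 0.81 between the deviations of same-numbered samples, called 292 genes higher and 339 lower, against 0 and 0 without it. It called 0 of the box C/D protein genes and 0 of the hosts at the 1.5-fold limit. Below that limit Fbl (log2 0.16, adjusted p = 0.0244 in edgeR), Ruvbl2 (0.15, 0.0455) and 14 of the 33 hosts, 8 higher and 6 lower, had an adjusted p under 0.05. The share of all genes under 0.05 without the fold limit was not counted, so it is open whether 14 of 33 differs from genes in general. Leaving out each sample called 0 to 0 of both lists. Those fits assume that a lone sample varies like the other group, and they called 3 to 65 genes, Trim28 in each. The cause of these differences was not tested. The limits are 1 library per condition in small RNA and no known library depth.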
